A study of Homo sapiens with 12 samples.

Results

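The 10 circadian clock genes examined were CLOCK, NPAS2, PER1, PER2, PER3, CRY1, CRY2, NR1D1, NR1D2 and DBP, chosen by gene symbol among the 60623 rows of a gene count table. The rule used no measured value, but these genes and the gene lists used further on were chosen with earlier results of these data known. All 10 were found as 1 row each, and all 10 passed the filter on low counts in every comparison. The counts came from poly(A)-enriched RNA of 4 stable sublines of A549, an established human lung adenocarcinoma cell line. Each subline had been infected with a lentivirus whose EF1a promoter drives the construct: the empty vector (V), wild-type HA-AHR (WT), HA-AHR with the S489A change (SA) or HA-AHR with the S489D change (SD). AHR, the aryl hydrocarbon receptor, is a ligand-activated transcription factor, and S489 is the serine at residue 489. Alanine cannot be phosphorylated, and aspartate is used as a mimic of phosphoserine. All 4 sublines were kept in medium with 10% FBS and selected with hygromycin at 200 ug/ml for 72 h. There were 3 libraries labelled as biological replicates of each line, and each construct was represented by 1 line, so a difference between constructs and a difference between lines cannot be told apart. No time of day, serum shock or other synchronization was named in the sources used here.

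The circadian clock of mammalian cells is a loop of transcription and translation. CLOCK or its paralog NPAS2 pairs with BMAL1 or BMAL2 (listed here under the older symbols ARNTL and ARNTL2) and binds E-box elements, and among the genes so driven are PER and CRY, whose proteins repress the same pair. NR1D1 and NR1D2, known as REV-ERB alpha and beta, repress through RRE elements, and DBP is an output activator that binds D-box elements. CLOCK, NPAS2, BMAL1, BMAL2 and the PER proteins hold PAS domains, the fold that AHR also uses to pair with its partner ARNT, which places them among the relatives of the overexpressed protein.

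Promoter windows of 250 bases before the start site were read from RefSeq (GRCh38.p14), which gave 14 windows for the 10 genes. The stretches below are shown because NPAS2 and PER2 are the genes whose levels passed the test between lines, and because the NR1D2 window shown holds the most kinds of the elements searched. This NR1D2 window lies within the annotated span of the gene (chr3:23945286-23980617). The other NR1D2 window, directly before that span, holds none of the elements. Capitals mark a matched element, and the NPAS2 window has none.
NPAS2 (chr2:100819889-100820138, plus strand): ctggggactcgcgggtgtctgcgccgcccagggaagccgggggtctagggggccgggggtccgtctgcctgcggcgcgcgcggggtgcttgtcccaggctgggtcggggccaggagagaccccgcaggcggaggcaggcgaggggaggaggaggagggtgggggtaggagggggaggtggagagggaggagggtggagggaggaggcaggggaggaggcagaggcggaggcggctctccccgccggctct
PER2 (chr2:238288790-238288819, minus strand): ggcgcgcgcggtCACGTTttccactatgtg
NR1D2 (chr3:23945871-23946120, plus strand): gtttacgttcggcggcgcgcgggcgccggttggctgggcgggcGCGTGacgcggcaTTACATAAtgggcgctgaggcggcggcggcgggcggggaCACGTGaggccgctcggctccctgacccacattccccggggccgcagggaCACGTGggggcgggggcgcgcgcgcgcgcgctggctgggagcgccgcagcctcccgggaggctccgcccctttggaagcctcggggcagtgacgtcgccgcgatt

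The elements were searched on both strands. The E-box CACGTG stood in 2 of the 14 windows (PER1 and NR1D2), and in 6.3% of the 35116 windows of all genes. The E-prime box CACGTT, or AACGTG on the other strand, stood in 5 windows (CLOCK, PER2, CRY1, CRY2 and NR1D1) and in 4.6% of all windows. In PER2 it began 197 bases before the start site of the window, and this place lies within the annotated span of the gene (chr2:238244044-238290102). The D-box, searched as TTATGTAA, TTACATAA or TTACGTAA, stood in 2 windows (PER3 and NR1D2) and in 0.9% of all. The RRE, TAGGTCA or TGACCTA, stood in 1 window (CRY2) and in 1.6% of all. The core of the xenobiotic response element to which AHR binds, GCGTG or CACGC, stood in 7 windows (CLOCK, both windows of PER3, CRY1, NR1D1, NR1D2 and DBP) and in 32.2% of all. In these windows its matches overlap none of the other elements, and neither NPAS2 nor PER2 held them in its window.

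The libraries held 7844045 to 11765576 expected counts, with the lowest total in WT replicate 1 and the highest in SA replicate 2. The 10 genes were counted at 74 (CRY2) to 2023 (NPAS2) per library, and all 120 of these values were whole numbers. AHR rose over V by a log2 value of 1.95 in the WT line, 1.69 in the SA line and 1.61 in SD (edgeR adjusted p of at most 5.84e-16 in the 3 comparisons), and its log2 value in SD against WT was −0.35 (edgeR adjusted p = 0.00774). With the second row to which counts of the AHR sequence were assigned, ENSG00000283321, the sums were 65.9 to 74.4 CPM (the count scaled to the library total) in V, 451 to 481 in WT, 372 to 407 in the SA line and 290.1 to 305 in SD. The AHR level thus differed between the lines beside the residue at position 489, and its part in the results was not tested. The epithelial markers KRT8, KRT18 and CDH1 were lower in each AHR line than in V, and the summed level of the 5 epithelial markers was 6048 to 6301 CPM in V and 4398 to 4859 CPM in the AHR lines. The 3 leukocyte, 3 endothelial and 3 alveolar type 2 markers had at most 3 counts in any library. Of the 4 fibroblast markers COL1A2 and DCN were at 0 in all libraries, and the sum was 9.89 to 13.5 CPM in V and 5.72 to 9.98 in the AHR lines, nearly all of it COL1A1. In bulk RNA, fewer cells that express a gene and less RNA per cell cannot be told apart.

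Levels of different genes were compared as CPM per kb of the canonical transcript. NPAS2 stood highest in every line, at 35.0 ± 1.43 CPM per kb in V, 41.0 ± 2.61 in WT, 40.6 ± 2.11 in the SA line and 34.0 ± 0.73 in SD (standard deviation, n = 3). CRY1 came next at 11.5 to 12.2 CPM per kb, and its libraries overlapped neither NPAS2 above nor the gene below it in any line. DBP, NR1D1 and NR1D2 followed at 6.23 to 8.49 CPM per kb, and neighbours among these 3 overlapped except DBP and NR1D1 in WT. PER1 stood at 5.51 to 6.13, PER2 at 3.20 to 4.04, CLOCK and CRY2 at 2.32 to 2.82 with overlapping libraries, and PER3 was lowest at 1.68 to 1.96 CPM per kb, apart from its neighbour only in WT. The order of DBP rests on the transcript length, since over the length of all its exons it ranked 7th or 8th. NPAS2 thus exceeded its paralog CLOCK per length by a ratio of 13.1 ± 0.79 in V, 14.5 ± 0.40 in WT, 16.5 ± 1.62 in the SA line and 13.5 ± 1.11 in SD. This ratio also rests on the length taken, since over the length of all exons (12.504 kb for NPAS2, beside 4.020 kb for its canonical transcript) it was 4.63 ± 0.28, 5.15 ± 0.14, 5.84 ± 0.57 and 4.80 ± 0.39 in the same lines.

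**Figure D1:**
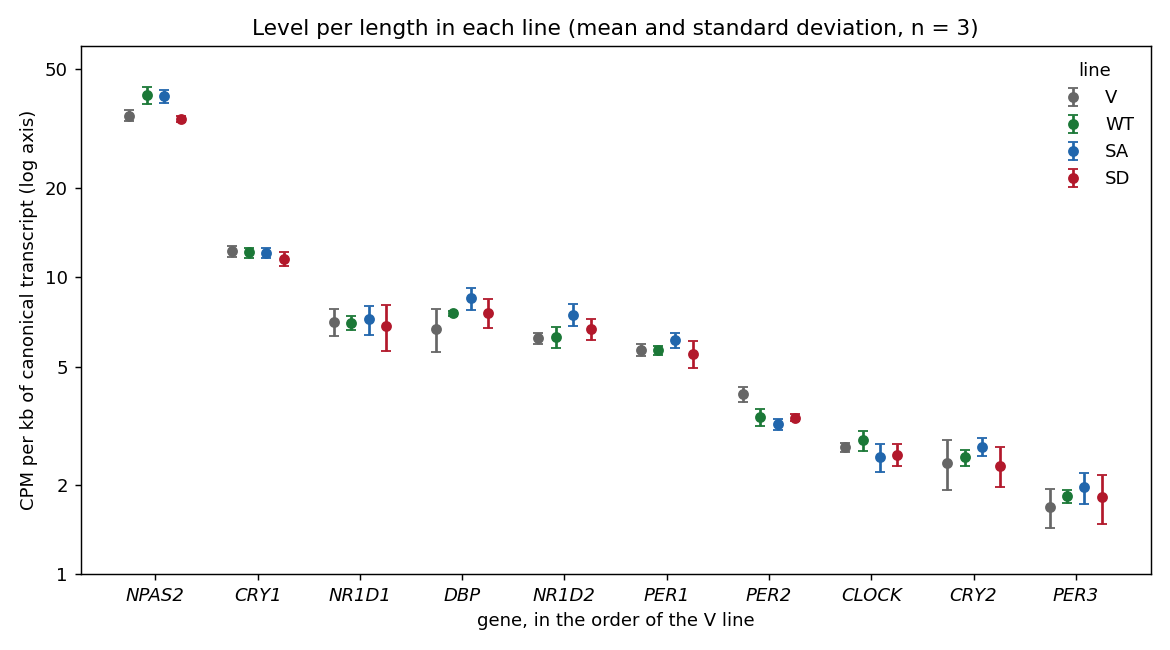
Level of each gene as CPM per kb of canonical transcript (log axis) in the lines V, WT, SA and SD, with points for the mean of 3 libraries and bars for the standard deviation. NPAS2 lies at 34.0 to 41.0, above CRY1 at 11.5 to 12.2, and PER3 is lowest at 1.68 to 1.96.

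NPAS2 (chr2:100820139-100996829, plus strand, GRCh38), a PAS-domain activator that can replace CLOCK, passed the test in 3 of the 6 comparisons of lines. PER2 passed in 1, and no other clock gene examined passed in any. The largest NPAS2 change was a log2 value of −0.27 (SD against WT, SE 0.06). In SA against V, PER2 (−0.34, SE 0.10) and DBP (0.34, SE 0.13) changed more in size but were measured less precisely. NPAS2 had 1199 to 2023 counts per library, and no other clock gene examined exceeded 483 (NR1D2). NPAS2 measured 144, 134 and 144 CPM in the V libraries (replicates 1, 2 and 3) and 153, 171 and 171 CPM in the WT libraries. It measured 159, 173 and 158 CPM in the SA line and 136, 135 and 140.2 CPM in SD. All 6 libraries of WT and SA lay above all 6 of V and SD, and the V and SD libraries overlapped each other. This grouping was read from the values, and how many of all genes show it was not counted.

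NPAS2 was 0.830-fold in SD relative to WT (log2 fold change −0.27, SE 0.06, edgeR adjusted p = 0.0271). It was the only one of the 10 genes called in this comparison, in which 0.708% of the 14828 genes tested were called. NPAS2 was 1.17-fold in WT relative to V (log2 0.23, SE 0.05, edgeR adjusted p = 0.00881), again the only one of the 10, with 5.24% of all genes called. NPAS2 was 1.16-fold in SA relative to V (log2 0.21, SE 0.06, edgeR adjusted p = 0.0156), 1 of 2 genes of the 10 called where 7.17% of all genes were. These 3 comparisons share libraries, so they are not separate evidence.

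Between SD and SA the log2 fold change of NPAS2 was −0.25 (SE 0.06, 95% interval −0.38 to −0.13), close to that against WT, but its edgeR adjusted p of 0.108 missed the threshold. None of the 10 genes was called there by edgeR, with 1 at an unadjusted p under 0.05, and 0.220% of 15030 genes were called. The same difference was called by DESeq2 (adjusted p = 0.0452), by edgeR's exact test (adjusted p = 0.0194) and by the main test on every gene with a count (adjusted p = 0.0182). The last 2 called more genes in all, 98 and 153, beside 33 in the main test. In edgeR it was not called with at least 10 counts in every library (adjusted p = 0.0764) or DESeq2 size factors (0.107). Nor was it called with all 12 libraries in one fit (0.0504), or without any single library (0.0819 to 0.555), in edgeR. Between WT and SA the log2 value was 0.01 (95% interval −0.11 to 0.13), and between SD and V it was −0.04 (95% interval −0.15 to 0.08). Neither of these passed the test, and the intervals leave room for differences up to those bounds.

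Each call of NPAS2 was lost when certain single libraries were left out. The SD against WT call was lost without WT replicate 2 (adjusted p = 0.132), WT replicate 3 (0.185), SD replicate 1 (0.0503) or SD replicate 2 (0.154), with log2 values of −0.32 to −0.24 over the 6 omissions. The WT against V call was lost without V replicate 2 (0.0551), WT replicate 2 (0.0523) or WT replicate 3 (0.0736), and the SA against V call without V replicate 2 (0.0888) or SA replicate 2 (0.1299), all in edgeR.

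NPAS2 shares exonic bases with genes on the opposite strand, and whether the counting used strand is not given in the sources used here. The lncRNA ENSG00000223947 covers 748 of its exonic bases (6.0%) and stood at 9.65 ± 0.15 CPM in V, 12.2 ± 1.79 in WT, 12.03 ± 1.10 in the SA line and 11.4 ± 1.24 in SD (standard deviation, n = 3). NPAS2-AS1 covers 400 bases (3.2%) and had at most 7 counts in any library. Both levels are small beside that of NPAS2, and their part in its differences was not tested.

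**Figure D2:**
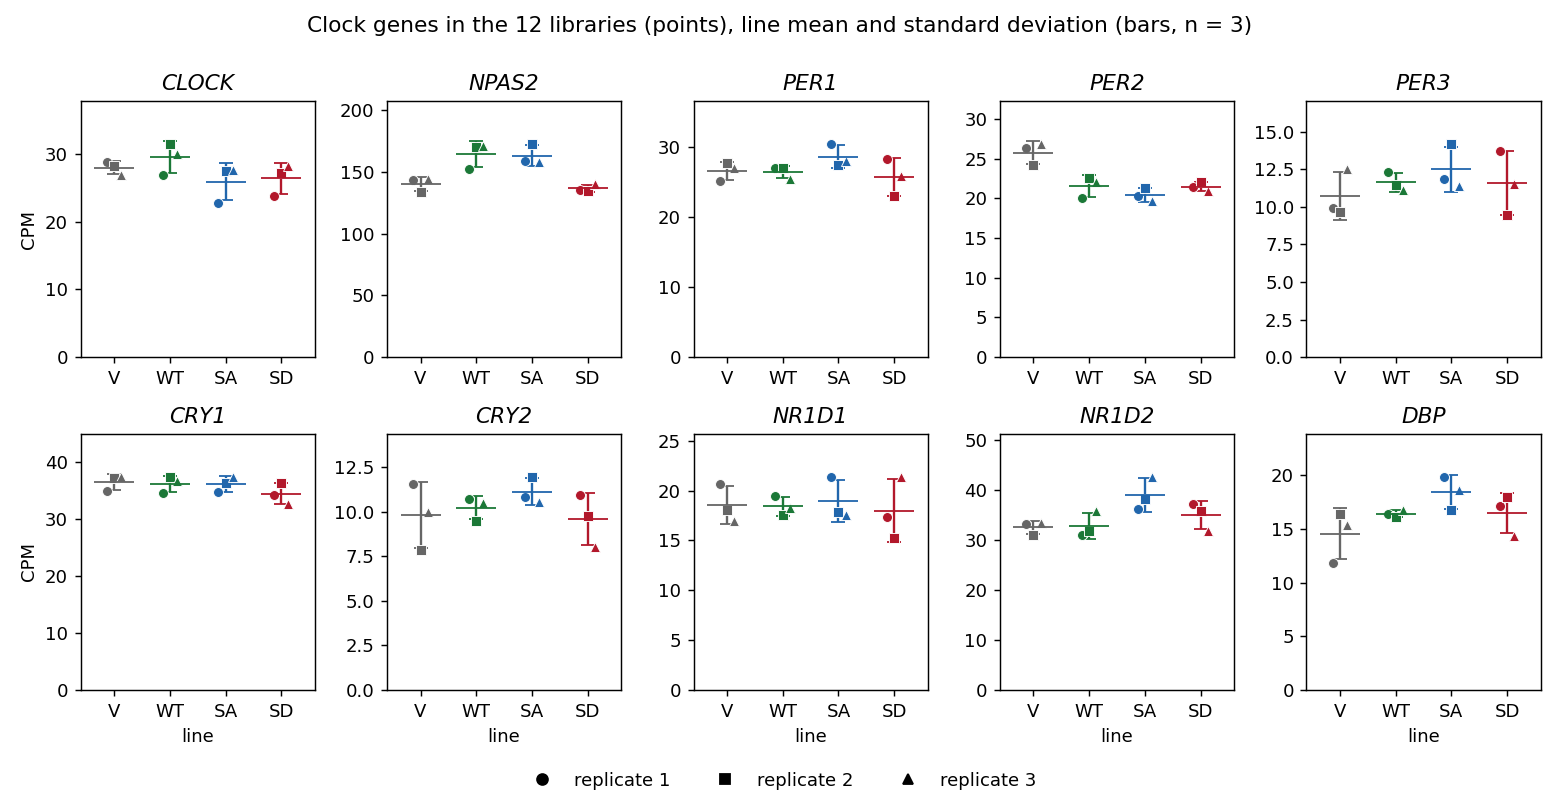
CPM of the 10 genes in each library, with points for the 3 replicates of V, WT, SA and SD, a horizontal mark for the line mean and bars for the standard deviation. For NPAS2 the WT and SA points (153 to 173 CPM) lie above the V and SD points (134 to 144 CPM), and for PER2 the V points lie above the rest.

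Among the repressors, PER2 (chr2:238244044-238290102, minus strand, GRCh38) was the only one called, in 1 of the 6 comparisons. PER2 measured 26.3, 24.1 and 26.9 CPM in V, and 19.98, 22.5 and 22.1 CPM in WT. It measured 20.3, 21.3 and 19.6 CPM in the SA line, and 21.5, 22.02 and 21.0 CPM in SD. Each V library was above all 9 libraries of the AHR lines, which overlapped among themselves. This grouping too was read from the values, and how many of all genes show it was not counted. In the pairs of lines with V, 21.4% (SD) to 23.8% (SA) of all genes tested did not overlap.

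PER2 was 0.792-fold in SA relative to V (log2 −0.34, SE 0.10, edgeR adjusted p = 0.0396). Against V the log2 values in WT and SD were each close to this, −0.26 in WT (SE 0.10, edgeR adjusted p = 0.1695) and −0.26 in SD (SE 0.10, edgeR adjusted p = 0.155), and neither passed the test. In SD against V none of the 10 genes was called, with 1 at an unadjusted p under 0.05, also none by DESeq2, where 5.41% of all genes were called by edgeR. The SA against V call was lost under DESeq2 (adjusted p = 0.106) and with every gene with a count tested (0.0618). It was also lost without V replicate 1 (0.138), V replicate 3 (0.153), SA replicate 1 (0.0661), SA replicate 2 (0.0686) or SA replicate 3 (0.144), and among the 6 omissions it held only without V replicate 2 (0.0441). Among the 3 AHR lines the PER2 log2 values were −0.01 to 0.08. The lncRNA ENSG00000225057, which shares 188 exonic bases (2.7%) with PER2 on the opposite strand, had at most 1 count in any library.

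PER1 and PER3, the other PER repressors, did not pass the test in any comparison. PER1 measured 25.2, 27.7 and 27.0 CPM in V, 27.0, 27.0 and 25.5 in WT, 30.5, 27.5 and 28.0 in the SA line, and 28.4, 23.0 and 26.0 in SD. The 3 SA libraries were above the 3 WT libraries, and the other pairs of lines overlapped. PER3 ranged from 9.45 to 14.2 CPM over the 12 libraries, and every pair of lines overlapped. PER3 shares 868 exonic bases (10.7%) with UTS2 on the opposite strand, whose line means were 0.766 to 1.32 CPM, and 482 (5.9%) with the lncRNA ENSG00000236266, which had at most 4 counts in any library. PER1 shares 30 exonic bases (0.4%) on its own strand with the protein-coding ENSG00000263620, at line means of 1.93 to 4.01 CPM, and 78 (1.1%) with MIR6883, which was at 0 in all libraries.

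CRY1 and CRY2, the flavoprotein repressors that act with PER, also passed no test. CRY1 varied least of the 10 genes in the ratio of its highest to its lowest library, with 32.7 to 37.4 CPM over the 12 libraries, log2 values between lines of −0.08 to 0.00, and 95% intervals within −0.26 to 0.17. CRY2, with the fewest counts, ranged from 7.87 to 11.97 CPM, and its 95% intervals reached from −0.54 to 0.52. CLOCK ranged from 22.8 to 31.6 CPM, with overlap in every pair of lines and its lowest values in SA replicate 1 and SD replicate 1. Its lowest unadjusted p was 0.0743, in WT against SA. CLOCK shares 76 exonic bases (0.7%) with TMEM165 on the opposite strand, at line means of 43.4 to 48.7 CPM, and CRY1 shares 94 (2.0%) with the lncRNA ENSG00000257548, which was at 0 in all libraries.

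NR1D1 and NR1D2 are nuclear receptors that repress ARNTL. NR1D1 ranged from 15.3 to 21.4 CPM with overlap in every pair of lines. NR1D2 (chr3:23945286-23980617, plus strand, GRCh38) measured 33.3, 31.0 and 33.4 CPM in V, 30.9, 31.8 and 35.8 in WT, 36.2, 38.1 and 42.7 in the SA line, and 37.3, 35.9 and 31.9 in SD. The SA libraries lay above those of V and of WT, and the SD libraries overlapped all the other lines.

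NR1D2 had a log2 fold change of 0.26 in SA against V (SE 0.09, edgeR adjusted p = 0.0631), which missed the threshold and passed it without SA replicate 1 (0.0311). In WT against SA its log2 value was −0.25 (SE 0.09, edgeR adjusted p = 0.529). None of the 10 genes was called in WT against SA, with 1 at an unadjusted p under 0.05, and 0.0803% of 14942 genes were called there. DESeq2 gave an adjusted p there for NPAS2 alone of the 10, so it made no call either way on the other 9. NR1D1 shares 473 exonic bases (18.0%) with THRA on the opposite strand, which stood at line means of 53.2 to 56.3 CPM, above NR1D1 itself.

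DBP (chr19:48630030-48637379, minus strand, GRCh38), the output activator, measured 11.8, 16.4 and 15.4 CPM in V, 16.4, 16.1 and 16.7 in WT, 19.9, 16.8 and 18.7 in the SA line, and 17.2, 17.9 and 14.4 in SD. The SA libraries were above those of V and of WT, and V replicate 1 was the lowest of all 12. DBP had a log2 fold change of 0.34 in SA against V (SE 0.13, edgeR adjusted p = 0.128), which did not pass the test. It shares 661 exonic bases (10.2%) with SPHK2 on the opposite strand, at line means of 34.4 to 37.1 CPM.

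**Figure D3:**
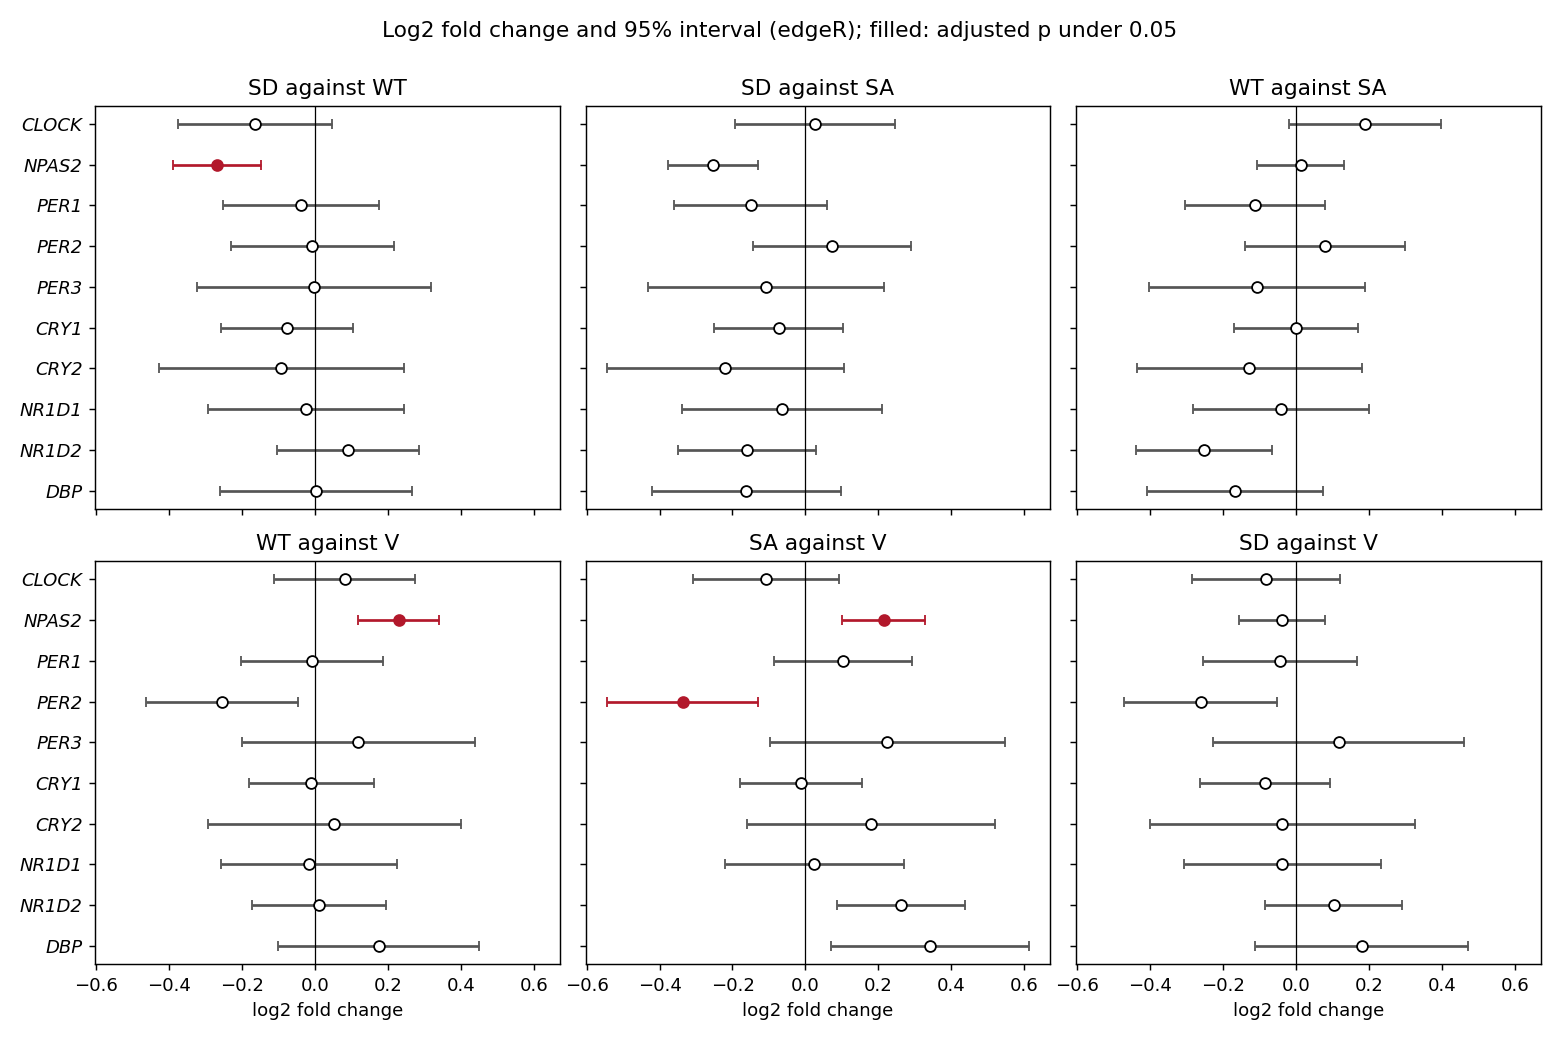
Log2 fold change (points) and 95% interval (bars) of the 10 genes in the 6 comparisons of lines, with filled red points for an adjusted p under 0.05 in edgeR. NPAS2 is filled in SD against WT (−0.27), WT against V (0.23) and SA against V (0.21), and PER2 in SA against V (−0.34).

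For the 6 genes CLOCK, PER1, PER3, CRY1, CRY2 and NR1D1 the 36 log2 values lay between −0.22 and 0.22, with a lowest unadjusted p of 0.0743 and a lowest edgeR adjusted p of 0.469. The half-width of the 95% intervals over all 10 genes was 0.11 to 0.36 on the log2 scale. Taking the 10 genes as a set, the middle log2 value was −0.03 in SD against WT, −0.13 in SD against SA, −0.07 in WT against SA, 0.03 in WT against V, 0.14 in SA against V and −0.04 in SD against V. The median over all genes tested was within 0.01 of 0 in each.

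The genes whose libraries did not overlap between lines were also counted. There was 1 of the 10 in SD against WT (NPAS2), where 16.0% of all genes tested did not overlap, and 1 in SD against SA (NPAS2), where 13.6% did not. In WT against SA there were 3 (PER1, NR1D2 and DBP, all lower in WT) beside 12.8%. In WT against V there were 2 (NPAS2 and PER2) beside 21.9%, in SA against V 4 (NPAS2, NR1D2, DBP and PER2) beside 23.8%, and in SD against V 1 (PER2) beside 21.4%. The share of the 10 genes was thus below that of all genes in 4 of the 6 comparisons, and above it in WT against SA and SA against V. With 10 genes the share moves in coarse steps, and the comparisons share libraries. No result about the clock genes is read from it.

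Between replicate numbers no clock gene passed the test. In a model with line and replicate number over the 12 libraries, none of the 10 genes was called by edgeR, where 0.252% of 15453 genes (39) were called. None of the 10 had an unadjusted edgeR p under 0.05, beside 9.84% of all genes. DESeq2's likelihood ratio test gave an adjusted p for NPAS2 alone (0.824), so it made no call either way on the other 9. The lowest p was that of CLOCK (unadjusted p = 0.112, edgeR adjusted p = 0.633), whose log2 value was 0.16 for number 2 against 1 (SE 0.08) and 0.14 for number 3 against 1 (SE 0.08). Over the 10 genes the log2 values between numbers were −0.20 (NR1D1, number 2 against 1) to 0.16. The 2 genes called between lines were close to 0 here, with 0.05 for NPAS2 (SE 0.05) and 0.04 for PER2 (SE 0.09) for number 2 against 1. The labels do not say what a replicate number stands for, such as a day or a harvest.

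**Figure D4:**
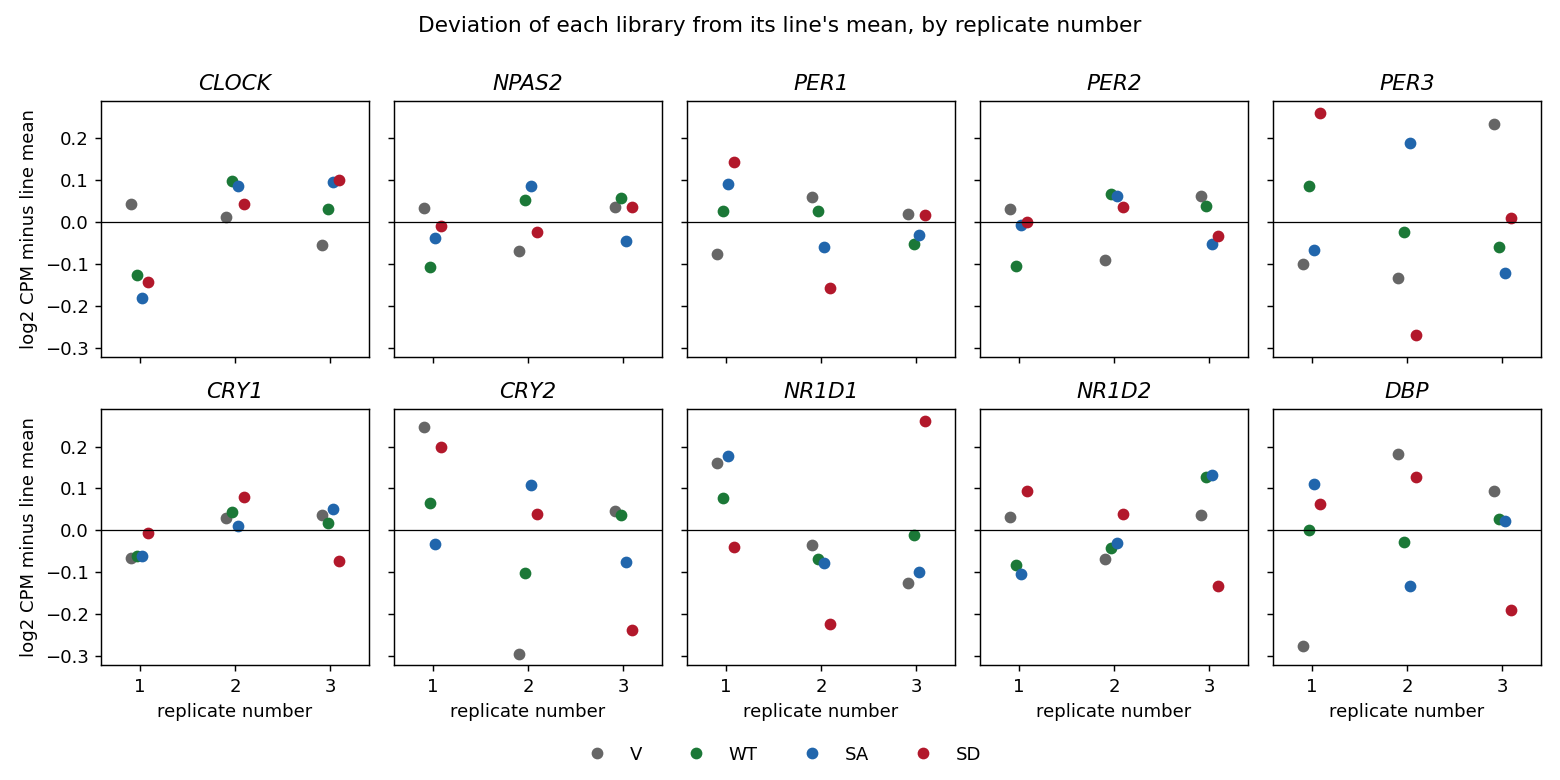
Deviation of each library from the mean of its line (log2 CPM) by replicate number for the 10 genes, 1 point per library, coloured by line. In CLOCK replicate 1 is lowest in 3 of the 4 lines, and V is the exception.

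The rest of the clock was described by a list of 20 genes, of which 14 or 15 were tested in a comparison of lines. None was called by edgeR among the 3 AHR lines, with 1 at an unadjusted p under 0.05 in each of the 3 comparisons (ARNTL2 in both with SD, BHLHE40 in WT against SA). Against V, 1 was called higher and 1 lower in WT, 2 higher and 1 lower in the SA line, and 0 higher and 1 lower in SD, where 5.24%, 7.17% and 5.41% of all genes tested were called in either direction. The median log2 fold changes of the list were −0.06 to 0.03 over the 6 comparisons.

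ARNTL2, or BMAL2, a partner of CLOCK and NPAS2, had line means of 35.3 ± 0.17 CPM in V, 45.0 ± 1.44 in WT, 45.9 ± 5.10 in the SA line and 39.2 ± 3.94 in SD (standard deviation, n = 3). It rose in WT against V (log2 0.35, SE 0.08, edgeR adjusted p = 0.00633) and in SA against V (log2 0.38, SE 0.09, edgeR adjusted p = 0.00490). Its log2 value in SD against WT was −0.20 (edgeR adjusted p = 0.395), which did not pass. ARNTL, or BMAL1, the main partner, had means of 17.0 ± 0.57 CPM in V, 19.7 ± 1.46 in WT, 20.1 ± 2.09 in the SA line and 18.2 ± 0.81 in SD and was called in no comparison. BHLHE40, a repressor at E-boxes, rose in SA against V (log2 0.21, SE 0.05, edgeR adjusted p = 0.0143). PPARGC1A, a coactivator of the ROR receptors in the clock, fell against V in WT (log2 −0.92, edgeR adjusted p = 0.00475), SA (−0.79, 0.0134) and SD (−0.95, 0.00261), from 10.98 ± 2.66 CPM in V to 5.68 to 6.37 CPM.

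Of 16 PAS-domain relatives outside the clock, 12 were tested. Besides AHR itself, HIF1A, the hypoxia factor, rose in SD against WT (log2 0.22, SE 0.05, edgeR adjusted p = 0.0477). Its log2 values in SD against SA (0.18, edgeR adjusted p = 0.288) and V (0.14, 0.158) had the same sign and did not pass. NCOA3, a nuclear receptor coactivator, fell against V in WT (log2 −0.22), SA (−0.27) and SD (−0.36), with edgeR adjusted p of at most 0.00264. SIM2, a developmental factor, fell in WT against V (log2 −0.35, edgeR adjusted p = 0.0255). Its values against V in SA (log2 −0.26, edgeR adjusted p = 0.0889) and SD (−0.22, 0.228) had the same sign and did not pass. None of this list was called by edgeR in SD against SA or WT against SA, with 4 at an unadjusted p under 0.05 in each. Those comparisons had few calls over all genes as well, 33 and 12.

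The genes whose levels most resembled the 2 called members over the 12 libraries were found by Pearson correlation of log2 CPM over 15452 other genes, as a description, since the points share the lines and their depth. For NPAS2 these were TRERF1 (r = 0.91), SH3KBP1 (r = 0.90) and ENSG00000261654 (r = 0.88). TRERF1, a zinc finger regulator of transcription, had means of 32.0 CPM in V, 38.5 in WT, 37.4 in the SA line and 33.0 in SD, and SH3KBP1, an endocytic adaptor, 81.1, 94.5, 91.2 and 79.6 CPM. ENSG00000261654 was below 1 CPM in every line mean. For PER2 they were PDLIM5 (r = 0.97), STARD4 (r = 0.97) and C5 (r = 0.94). PDLIM5, a cytoskeletal scaffold, had 297 CPM in V and 234 to 242 CPM in the AHR lines. STARD4, a sterol carrier, had 39.1 against 31.4 to 33.4 CPM, and C5, a complement component, 45.8 against 15.8 to 22.2 CPM.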

How the data were processed

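RNA-seq was deposited for 4 A549 sublines with 3 libraries each. The authors trimmed reads with Trimmomatic 0.39, quantified them with RSEM on GRCh38 transcripts and deposited expected counts per gene; its version and the strand setting are not given in the sources used here. A second deposited table holds the authors' own fold changes, p-values and q-values and was not used. The expected counts were rounded, filtered (filterByExpr, minimum count 10, minimum total 15), scaled by TMM and tested in pairs of lines, on 6 libraries each, with edgeR 4.0.16 (quasi-likelihood F test, R 4.3.3), with Benjamini-Hochberg adjustment over all genes tested and calls at an adjusted p under 0.05. The replicate number was tested over all 12 libraries with line as a term. CPM used TMM-scaled library sizes, and log2 CPM for correlations used a prior count of 2. Lengths were those of canonical transcripts in GENCODE. DESeq2 1.42.0, edgeR's exact test, other filters and scalings, a joint fit, a replicate block and the omission of each library were alternatives. The scripts were tested on simulated counts. Within each line the libraries differed by more than sampling noise, with a chi-square per degree of freedom of 2.50 to 6.88. Nothing states how the replicates were grown, so p-values measure the spread between these libraries, which may be technical. The labels name SA and SD where the column names have A and D.

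All 10 clock genes were named by rule. From the lists of other clock genes and PAS-domain relatives values were given only for called genes, with ARNTL added as the main partner after its values were seen. From the serum, glucocorticoid and AHR target lists at most 3 genes each were named, and genes that overlap a member were named with their values. The members and the lists were chosen with earlier results of these data known.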

Additional observations from a re-analysis of the deposited data

How the results depend on the processing

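For NPAS2, PER2, NR1D2 and DBP in the 6 comparisons, most alternatives kept direction and side of the threshold, counting the values that were not called. Of the calls themselves, that of PER2 in SA against V was lost in 7 of 13 alternatives. The NPAS2 calls were lost in 4 of 13 in SD against WT, 3 of 13 in WT against V and 2 of 13 in SA against V. The exceptions with a changed call are given with each gene in the report, apart from the replicate block. The 6 other genes were called under none of the 77 alternatives that gave them an adjusted p (DESeq2 in WT against SA gave none), and over 78 alternatives 37 of their 468 values changed sign, all of genes not called.

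The replicate numbers were taken to pair the libraries only if every same-number correlation of deviations was over 0.1. Of 18 such correlations (−0.04 to 0.11) 1 was over 0.1, so the main fits used no pairing. Yet 11 of 12 libraries had a higher mean correlation with their own number than with others. The deviations also hold counting noise, so this rule cannot settle whether the numbers pair the libraries. With a replicate block the genes called were 245 in SD against WT (105 without), 165 in SD against SA (33), 25 in WT against SA (12) and 507 in WT against V (774). With the replicate block NPAS2 was called lower in SD against SA (1 member, edgeR adjusted p = 0.0158) and NR1D2 higher in SA against V (2 members higher, edgeR adjusted p = 0.0404).

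With every gene with a count tested, 252 genes were called in SD against WT, 153 in SD against SA, 103 in WT against SA and 230 for the replicate number (39 as reported). The exact test called 222, 98 and 36 in the first 3. The joint fit of 12 libraries called 5 in WT against SA. For the replicate number, 64 genes were called with at least 10 counts in every library, 125 by DESeq2, 92 without line V, 22 without WT, 1 without SA, 6 without SD, 1 without number 1 and 8 without number 3, and 0 of the 10 clock genes in any of them, although 9 had no adjusted p in DESeq2. In SD against SA, 1 clock gene was called lower by DESeq2, by the exact test and with every gene tested, and in SA against V 0 were called lower by DESeq2 and with every gene tested.

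Leaving out 1 library at a time gave 45 to 145 genes called in SD against WT, 11 to 56 in SD against SA, 2 to 25 in WT against SA, 434 to 720 in WT against V, 621 to 1195 in SA against V, 502 to 856 in SD against V and 6 to 76 for the replicate number. The clock genes called were then 0 to 1 lower in SD against WT, 0 to 1 higher in WT against V, and 0 to 2 higher and 0 to 1 lower in SA against V.

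Signs turned only for log2 values near 0. In SD against WT, PER2 ranged from −0.0541 to 0.0272 over the omissions of 1 library and was positive without WT replicate 2 or 3 or SD replicate 3, and DBP ranged from −0.0628 to 0.0975 and was negative without WT replicate 2 or SD replicate 1 or 2. In WT against SA, NPAS2 ranged from −0.0101 to 0.0643 and was negative without WT replicate 2 or 3 or SA replicate 1 or 3. In WT against V, NR1D2 ranged from −0.0533 to 0.0484 and was negative without V replicate 2 or WT replicate 3. The cause of these changes was not tested. The clock genes had 74 to 2023 counts per library.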

Other observations

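Genes known to rise with serum or fresh medium were counted as a list. Of 13 such genes 10 were tested, and in SD against WT 1 was called lower, FOSL1 (log2 −0.41, edgeR adjusted p = 0.0231), which was higher than in V in WT (0.82), SA (0.79) and SD (0.42), with edgeR adjusted p of at most 0.00967. Against V, 2 were called higher and 2 lower in WT, 1 higher and 1 lower in SA, and 3 higher and 1 lower in SD, beside 5.24%, 7.17% and 5.41% of all genes tested. EGR1 rose in WT (log2 0.98, edgeR adjusted p = 0.0178) and in SD (log2 1.11, edgeR adjusted p = 0.0132), and NR4A1 fell in WT (−0.44), SA (−0.48) and SD (−0.33), with edgeR adjusted p of at most 0.0213. None was called by edgeR in SD against SA or WT against SA, with 3 and 4 at an unadjusted p under 0.05, and the list medians over the 6 comparisons were −0.11 to 0.08.

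Of 10 genes known to respond to glucocorticoid, PER1 among them, 9 were tested and none was called by edgeR among the AHR lines, with unadjusted p-values under 0.05 for 3 genes when SD was set against WT, 2 when it was set against SA, and 2 between WT and SA. Against V, 1 was called higher in WT, 2 in SA and 1 in SD, of the 9 tested, beside the same shares of all genes. MT2A, a metallothionein, rose in WT (log2 0.76), SA (0.77) and SD (0.52), with edgeR adjusted p of at most 8.61e-06, and CEBPD rose in SA (log2 0.26, edgeR adjusted p = 0.0105). The list medians were −0.08 to 0.17.

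Of 8 AHR target genes 6 were tested, and none was called by edgeR among the AHR lines, with 2, 2 and 1 at an unadjusted p under 0.05 in the same order. Against V, 3 were called higher in WT, 3 in SA and 1 in SD, of the 6 tested, beside the same shares of all genes. CYP1B1, a cytochrome of xenobiotic metabolism, rose in WT (log2 0.34), SA (0.38) and SD (0.34), with edgeR adjusted p of at most 0.00333. TIPARP, which represses AHR, rose in WT (0.51) and SA (0.48), and NQO1, a quinone reductase, in WT (0.21) and SA (0.21), with edgeR adjusted p of at most 0.00950. The list medians were −0.09 to 0.26. In the test of the replicate number 0 genes of these 3 lists were called by edgeR, with 2, 2 and 0 at an unadjusted p under 0.05.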
